A study of Mus musculus with 3 samples.

Results

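Isolated peaks were the accessible sites of dopaminergic neurons (DNs) that had no other accessible peak within 100 kb on either side. They were chosen by the measured gaps in the DN peak list of single-nucleus ATAC-seq (snATAC-seq), in which a transposase cuts open chromatin inside isolated nuclei. An autosomal peak was counted when the gap to the next peak was more than 100 kb both upstream and downstream, and the first and last peak of each autosome, 38 in all, were left out. The rule kept 1635 of the 54570 peaks on the 19 autosomes, or 3.00%, and left 52935 other peaks. The list held 55326 peaks, each read as 500 bp, of which 756 on the X chromosome were outside the rule.

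The nuclei came from the midbrain ventral tegmental area of wild-type male C57Bl/6Nl mice in 2 libraries, from mice aged 7 weeks and 9 weeks. The tissue holds many cell types, and the authors chose the DN cluster by its accessibility at *Th* and other marker genes. Both libraries were pooled in 1 list that gives positions without a height or a read count, so this list gave no replicates to compare, no test was made, and the depth behind a peak is not known from it. A gap is therefore a stretch in which the list holds no peak. The authors kept, for further analyses, peaks found in a minimum share of nuclei, and the sources used here do not say whether the list is from before or after that filter, so a gap may hold called peaks that were filtered out. The third sample of the series, bulk ATAC-seq of mouse embryonic stem cells, was not analysed here. Intervals are 95% exact binomial (Clopper-Pearson) confidence intervals. They cover counting error only, and neighbouring peaks are not independent.

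Accessible chromatin marks promoters, where transcription starts, and distal elements such as enhancers and insulators. Enhancers are bound by factors with their own preferred DNA words, and insulator sites are often bound by CTCF, a zinc finger protein that anchors chromatin loops. DNs depend on forkhead factors (*Foxa1*, *Foxa2*) and on the orphan nuclear receptor *Nr4a2*, which can bind the monomer word known as the NBRE. Gene-poor parts of the genome are generally AT-rich and hold many of the longest neuronal genes.

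The centre of the peak with the largest smaller gap in each position class is shown first, because these 5 sites are the most extreme members. Sequences are from GRCm38, whose chromosomes are those of mm10, and are written 5′ to 3′ on the plus strand. They are the *Zik1* promoter (chr7:10495364-10495483), the promoter of the T cell receptor segment *Trav10d* (chr14:52810754-52810873), an exon of *Irx1* (chr13:71959548-71959667), an intron of the lincRNA gene *Gm6602* (chr3:111982443-111982562) and an intergenic site near *Triml2* (chr8:43179168-43179287).
Zik1 promoter: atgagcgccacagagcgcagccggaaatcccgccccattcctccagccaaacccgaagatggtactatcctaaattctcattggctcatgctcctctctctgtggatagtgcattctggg
Trav10d promoter: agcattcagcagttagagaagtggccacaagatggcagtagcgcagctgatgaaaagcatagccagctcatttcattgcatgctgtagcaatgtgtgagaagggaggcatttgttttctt
Irx1 exon: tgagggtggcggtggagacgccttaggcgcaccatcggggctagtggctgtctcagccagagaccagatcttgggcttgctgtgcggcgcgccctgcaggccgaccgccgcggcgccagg
Gm6602 intron: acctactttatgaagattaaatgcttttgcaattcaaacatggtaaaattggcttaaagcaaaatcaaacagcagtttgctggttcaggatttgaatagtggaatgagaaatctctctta
Triml2 intergenic: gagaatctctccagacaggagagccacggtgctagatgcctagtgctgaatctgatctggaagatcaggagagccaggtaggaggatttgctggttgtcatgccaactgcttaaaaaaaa
In the *Trav10d* peak, 47.4% of the 50-base words sampled occurred once in the genome, so its placement is uncertain. Base composition of the whole peaks varied widely. GC content was 65.6% in the *Irx1* peak and 53.2% in the *Zik1* peak, and it was 44.4% at *Triml2*, 40.2% at *Trav10d* and 33.6% in *Gm6602*, whose peak held no CpG.

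CTCF matches are shown for the 5 matching isolated peaks with the largest smaller gap, with the match to a CTCF consensus of 12 letters in capitals and 24 bases on each side. The sites lie at chr10:46698160-46698219 (plus strand), chr14:40275490-40275549 (minus strand), chr5:16947574-16947633 (plus strand), chr5:13629220-13629279 (minus strand) and chr17:89654532-89654591 (plus strand).
CTCF 1: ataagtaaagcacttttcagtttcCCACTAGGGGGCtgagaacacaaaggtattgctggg
CTCF 2: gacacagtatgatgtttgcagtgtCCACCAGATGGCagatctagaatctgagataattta
CTCF 3: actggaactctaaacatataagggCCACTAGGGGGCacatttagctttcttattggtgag
CTCF 4: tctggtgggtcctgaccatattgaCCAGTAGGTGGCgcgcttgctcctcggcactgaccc
CTCF 5: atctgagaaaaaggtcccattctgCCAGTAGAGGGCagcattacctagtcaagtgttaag
Their peaks had smaller gaps of 640.1, 618.8, 608.0, 589.1 and 433.3 kb, in this order. The first match lay 72 bp from the peak centre and the other 4 lay 3 to 25 bp from it.

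NBRE words (AAAGGTCA) and forkhead words (TGTTTAC) are shown from the intronic or intergenic peaks with the largest smaller gaps among those that hold the word, because they are words of factors on which DNs depend. The NBRE sites are at chr8:52322155-52322210 (minus strand), chr1:26650452-26650507 (plus strand) and chr5:56933103-56933158 (plus strand), and the forkhead sites at chr1:148598007-148598061 (minus strand), chr16:61442227-61442281 (minus strand), chr14:91566913-91566967 (minus strand) and chr5:56933209-56933263 (plus strand). The word is in capitals.
NBRE 1: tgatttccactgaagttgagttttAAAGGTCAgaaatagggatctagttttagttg
NBRE 2: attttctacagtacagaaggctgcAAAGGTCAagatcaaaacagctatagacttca
NBRE 3: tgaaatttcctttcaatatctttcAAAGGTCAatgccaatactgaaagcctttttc
Forkhead 1: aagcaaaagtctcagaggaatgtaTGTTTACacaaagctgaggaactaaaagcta
Forkhead 2: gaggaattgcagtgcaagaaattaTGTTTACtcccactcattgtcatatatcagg
Forkhead 3: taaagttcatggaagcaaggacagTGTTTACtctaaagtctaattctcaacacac
Forkhead 4: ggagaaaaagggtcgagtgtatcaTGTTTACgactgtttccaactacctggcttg
The last NBRE site and the last forkhead site lie in 1 peak of chromosome 5, with a smaller gap of 780.5 kb, at 14 bp and 119.5 bp from its centre.

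The smaller of the gaps beside an isolated peak had a median of 153.6 kb (quartiles 120.1 and 223.5 kb), and the larger gap had a median of 312.9 kb (quartiles 200.6 and 518.4 kb). These gaps chose the members and are a description. Over all autosomal peaks the median smaller gap was 2.98 kb. In 71 isolated peaks the smaller gap was over 500 kb and in 13 it was over 1 Mb. The 3 members nearest to the limit had smaller gaps of 100.004, 100.038 and 100.038 kb, the last pair facing each other across 1 gap on chromosome 10, and the 3 peaks just outside had 99.969, 99.946 and 99.912 kb. The values run through the limit without a step.

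**Figure D1:**
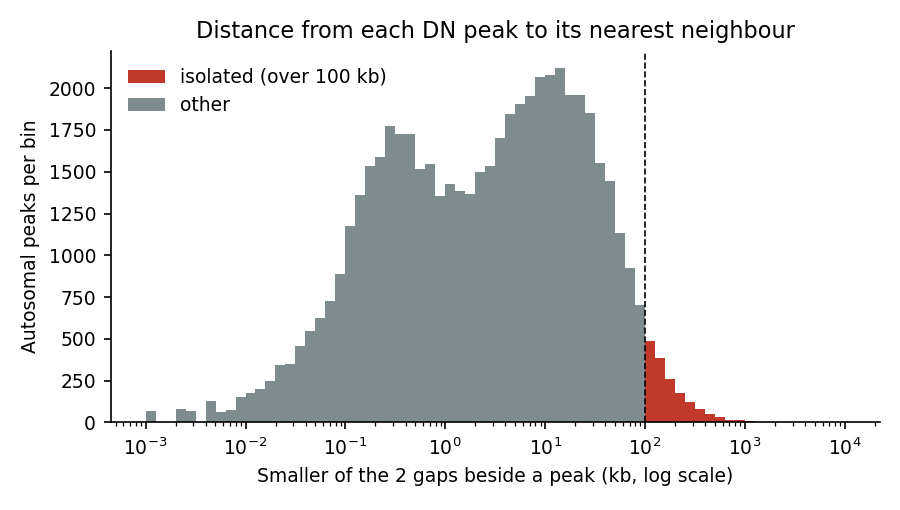
Number of autosomal DN peaks (vertical axis) by the smaller of the gaps beside each peak in kb (horizontal axis, log scale), with isolated peaks in red and the dashed line at 100 kb. The counts show no step at the line, beyond which the 1635 isolated peaks have a median of 153.6 kb.

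Isolated peaks stood beside 2632 gaps that together held 864.5 Mb, or 35.1% of the autosomes. They were often next to each other. The rule fixes part of this, because a peak beside an isolated peak already has a gap over 100 kb on that side. The share to be expected from this was not computed. The neighbouring peak was isolated too for 992 members (60.7%), which formed 354 runs of at least 2, and 643 members stood alone. In 71 runs there were at least 4, and the longest 3 had 8 isolated peaks each. One of these spanned 3.14 Mb of chromosome 6 with *Ctnna2*, an alpha-catenin of neuronal cell contacts, and another spanned 2.74 Mb of chromosome 11 without a protein-coding gene. A run of 7 on chromosome 1 included *Cdh7* and *Cdh19*, which encode cadherins, and a run of 7 on chromosome 4 lay inside *Ptprd*, a receptor tyrosine phosphatase of synapses.

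The share of an autosome's peaks that was isolated ranged from 1.59% on chromosome 11 (69 of 4352, interval 1.24 to 2.00%) to 4.97% on chromosome 3 (118 of 2376, interval 4.13 to 5.92%). Chromosome 11 had the most peaks per Mb, 35.6, and chromosome 3 the fewest, 14.8. Isolated peaks per Mb varied less, from 0.44 on chromosome 7 to 0.83 on chromosome 15.

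**Figure D2:**
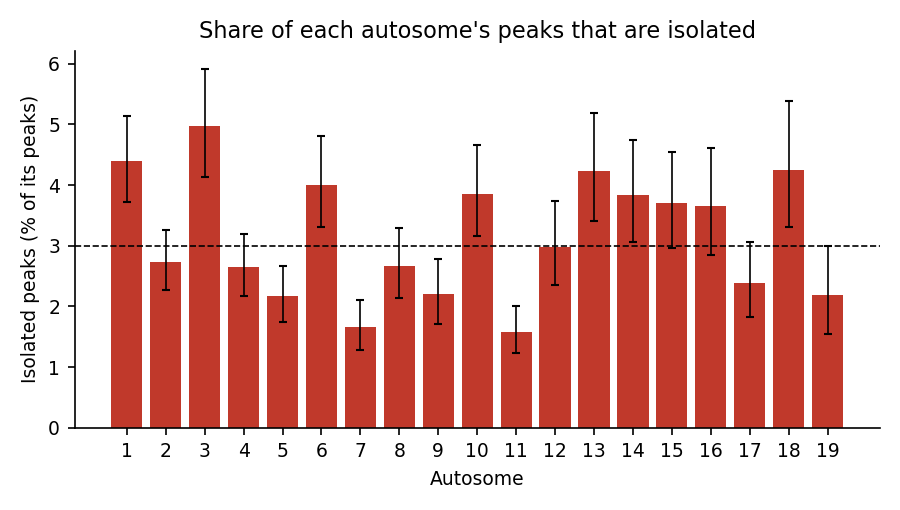
Share of each autosome's peaks that were isolated (bars, %) with 95% exact binomial intervals, and the share over all autosomes, 3.00%, as a dashed line. Chromosome 3 is highest at 4.97% and chromosome 11 lowest at 1.59%.

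Isolated peaks lay mostly between genes. Of the 1635, 838 (51.3%, interval 48.8 to 53.7%) were intergenic, against 20.3% of other peaks, and 467 (28.6%) were intronic, against 39.4%. Protein-coding promoters, here peaks centred within 1 kb of a transcription start, made up 263 (16.1%, interval 14.3 to 17.96%), against 30.2%. Other promoters were 49 (3.00%) against 3.74%, and exons 18 (1.10%) against 6.40%. Read the other way, 7.24% of all intergenic peaks were isolated and 1.62% of protein-coding promoter peaks.

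**Figure D3:**
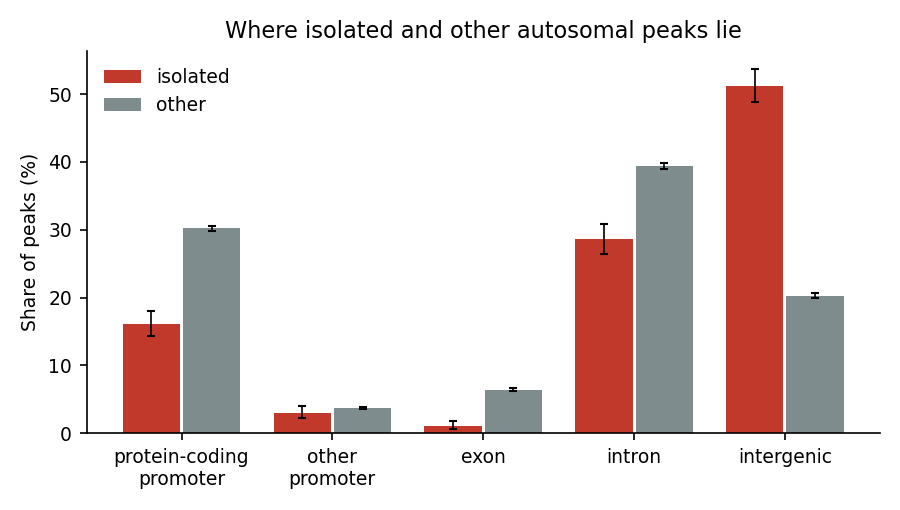
Share of isolated (red) and other (grey) autosomal peaks in each position class (%), with 95% exact binomial intervals. Intergenic peaks are 51.3% of isolated and 20.3% of other peaks, and protein-coding promoters 16.1% and 30.2%.

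The surroundings were gene-poor and AT-rich. Within 100 kb on each side there were on average 1.02 protein-coding genes, against 4.40 around other peaks, and 703 isolated peaks (43.0%) had none, against 4.33%. The rule fixes part of this and of the distances to a start given next, because no gene with a promoter peak can start in those surroundings apart from the peak's own. Mean GC content of those surroundings was 39.96% (SD 2.59) against 45.8% (SD 3.68). Intergenic isolated peaks were a median of 258.9 kb from the nearest protein-coding start, against 29.6 kb, and 209 of them (24.9%) were over 500 kb away, against 1.99%. In all, 14 isolated peaks (0.86%) had an assembly gap in those surroundings, against 1.52% of other peaks.

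The 10 most isolated peaks held 3 promoters. The peak with the largest smaller gap was at *Zik1*, a zinc finger gene (chr7:10495173-10495673), 30 bp from the transcription start, with gaps of 3306.7 kb and 1926.6 kb. The promoter of *Sema3d*, a secreted axon guidance molecule, had gaps of 2656.8 and 1245.3 kb. That of the zinc finger gene *Zfp804a* had gaps of 1207.3 and 1590.6 kb. The other 7 were intergenic. One was 1.31 kb from the start of *Triml2*, and one was 1.40 kb from the start of the lincRNA gene *Gm13470* and 1326.7 kb from *Zeb2*, the nearest protein-coding start. The remaining 5 were 406.7 kb to 1473.3 kb from a protein-coding start.

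The 263 isolated promoters were close in base composition to promoters elsewhere. Their GC content was 61.8% (SD 8.08) against 61.9% (SD 8.40) in other protein-coding promoters, and their mean ratio of observed to expected CpG was 0.73 against 0.71. Over 50% GC with a CpG ratio above 0.6, the usual sign of a CpG island, was met by 199 (75.7%, interval 70.0 to 80.7%) against 70.0%. Their surroundings were as AT-rich as those of other isolated peaks, at 40.3% GC against 45.6% around other promoters. The GC box (GGGCGG) was present in 73.4% against 70.2%, the NRF1 word (GCATGCGC) in 4.94% against 5.09%, and the ETS word (CCGGAAG) in 22.4% (interval 17.5 to 28.0%) against 17.3%.

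Isolated promoters belonged to longer genes. The median length was 66.2 kb (quartiles 27.6 and 188.6 kb), against 26.2 kb for the 10861 genes nearest to a promoter peak that was not isolated. Genes over 300 kb made up 17.1% against 3.84%. For 205 of the 263 (77.9%) the promoter peak was the only peak in the gene. The rule fixes this for most of them, since 158 of the 263 genes were under 100 kb and the empty stretch on the gene side was longer than the gene in all 158. The gap was larger on the side of the gene in 120 of the 263 (45.6%).

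After *Zik1*, *Sema3d* and *Zfp804a*, the promoters with the largest smaller gaps were those of *Gm3667* (875.9 kb), *Mdga2* (540.3 kb), *Smim10l1* (514.5 kb), *Mgat4c* (455.1 kb), *Cntnap5c* (432.8 kb), *Zfp804b* (390.9 kb) and *Cdh9* (389.2 kb). *Mdga2* encodes a cell surface protein of synapses, *Mgat4c* a glycosyltransferase, *Cntnap5c* a contactin-associated protein and *Cdh9* a cadherin. GC content of these peaks was not uniformly high. It was 41.2% at *Mdga2*, 42.0% at *Mgat4c* and 45.6% at *Cdh9*, against 72.8% at *Zfp804a*. At *Gm3667*, 36.8% of the 50-base words sampled in the peak occurred once in the genome and one of them occurred 23 times, so the placement of this peak is uncertain.

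Of the 49 isolated peaks at other promoters, 21 (42.9%) were at lincRNA genes, against 30.1% of the 1980 other such peaks, and 4 (8.16%) were at antisense genes, against 22.6%. The largest smaller gaps were at *Trav10d* (471.5 kb, with uncertain placement), *Gm37136* (427.0 kb), *Gm15391* (380.2 kb), *Gm36971* (344.5 kb) and *Gm46102* (344.1 kb). The *Gm37136* peak (chr3:25143809-25144309) had 77.8% GC and overlapped the 5′ end of *Naaladl2*, a protein-coding gene on the minus strand that reaches chr3:25144261. It was classed with other promoters because the nearest protein-coding start among the basic transcripts, also of *Naaladl2*, was 360.4 kb away. The 18 exonic peaks included *Irx1* (smaller gap 488.5 kb) and *Sox9* (257.5 kb), which encode a homeobox and an HMG box transcription factor, and *Prex2* (268.2 kb), which encodes an exchange factor for Rac. Those at *Irx1* and *Sox9* had 65.6% and 67.0% GC, while that in *Prex2* had 37.8%. The other exonic peaks with the largest smaller gaps lay within the antisense gene *4930526L06Rik* (231.0 kb), 7.16 kb from the start of *Ms4a5*, and in the lincRNA gene *C630028M04Rik* (220.6 kb).

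Intronic isolated peaks lay in very long genes. In 378 of 467 the host was a protein-coding gene, with a median host length of 458.2 kb (quartiles 220.1 and 894.8 kb), against 114.3 kb (quartiles 46.0 and 276.5 kb) for other intronic peaks. Hosts over 300 kb held 65.3% (interval 60.3 to 70.1%) against 22.5%, and hosts over 1000 kb held 20.6% against 4.78%. A gap limit of 100 kb favours long hosts by construction. The most isolated intronic peaks were in *Gm6602* (1002.4 kb), in *Kcnt2*, a sodium-activated potassium channel (783.5 kb), in *Sgcz*, a sarcoglycan (620.7 kb), in the lincRNA gene *Gm47352* (559.1 kb) and in *Malrd1* (549.0 kb).

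The protein-coding genes with the most isolated peaks were *Ptprd*, with 7 of its 15 peaks, *Lsamp*, a cell adhesion molecule of limbic neurons, with 5 of 30, *Pcdh15*, a protocadherin, with 5 of 10, and *Macrod2* (4 of 21), *Ccser1* (4 of 7) and *Nkain3* (4 of 5), which tied. *Ptprd* covers 2270.7 kb at chr4:75941238-78211961. Its density of 6.61 peaks per Mb was below the 13.7 per Mb of *Lsamp*, which has a length of 2197.3 kb.

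Isolated peaks were common in genes for neuronal adhesion. Of 135 adhesion genes (cadherins, protocadherins, contactins, neurexins, semaphorins, ephrins and similar families), 34 held an isolated peak (25.2%, interval 18.1 to 33.4%), against 2.81% of all 20807 autosomal protein-coding genes. Their median length was 128.3 kb against 17.6 kb. Among genes over 300 kb the shares were 53.1% (26 of 49, interval 38.3 to 67.5%) for adhesion genes and 38.3% (207 of 541, interval 34.1 to 42.5%) for all genes, and at 100 to 300 kb they were 30.4% (7 of 23, interval 13.2 to 52.9%) and 9.23% (interval 7.94 to 10.6%). Over 300 kb the intervals overlapped and the median lengths were 739.8 kb and 450.5 kb, so length was not matched there. At 30 to 100 kb the shares were 0 of 18 (up to 18.5%) and 2.34%. Of 210 genes for receptors and channels, 24 (11.4%) held one. Over 300 kb it was 37.1% (13 of 35, interval 21.5 to 55.1%), close to the 38.3% of all genes, and at 100 to 300 kb 22.9% (8 of 35, interval 10.4 to 40.1%). Of 210 developmental transcription factors, 13 (6.19%) held one, with 3 of 6 over 300 kb and 3 of 10 at 100 to 300 kb. Of 176 ribosomal and respiratory chain genes it was 2 (1.14%, interval 0.14 to 4.04%). The list had a peak in 93.2% and a median length of 4.87 kb, while 0.41% of all genes up to 10 kb held an isolated peak. The 2 genes themselves were 105.4 and 100.5 kb long, and at 100 to 300 kb 9.23% of all genes held an isolated peak. Of 1507 chemosensory receptors it was 5 (0.33%), with a peak in 1.19%.

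In these lists, 30 genes had an isolated promoter. The adhesion genes included *Sema3d*, *Sema3c*, *Cntnap5c*, *Cntnap5b*, *Cntnap3*, *Cdh9*, *Cdh7*, *Ctnna2*, *Slitrk6*, *Cntn4* and *Lsamp*. The smaller gap was 385.4 kb at *Cdh7* and 130.2 kb at *Ctnna2*. *Sema3d*, *Sema3c*, *Cntnap5c*, *Cntnap3*, *Cdh9*, *Cdh7* and *Slitrk6* had no other peak. The receptors and channels included *Kcnv1*, *Kcnh5*, *Kcnh7*, *Kcnip4*, *Kcnb2*, *Kcnq5*, *Kcnk2*, *Kcnmb4*, *Scn7a* and *Grm3*, most of them subunits or partners of potassium channels. The smaller gap was 277.8 kb at *Kcnv1* and 227.3 kb at *Grm3*, a metabotropic glutamate receptor. The transcription factors included *Tbx18* (310.5 kb) and *Hoxc10* (142.9 kb), each with 1 peak. The other lists gave *Ndufs4*, a subunit of complex I (126.4 kb), and the receptors *Olfr65* (247.6 kb) and *Vmn1r44* (199.1 kb), whose peaks had 39.6% and 39.8% GC.

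All 12 DN markers examined had at least 1 peak, from 2 in *Pitx3* to 29 in *Lmx1b*, and 0 of 12 held an isolated peak, which allows a share of up to 26.5% and so includes the 2.81% of all genes. The marker lists examined for oligodendrocytes, astrocytes, microglia, GABAergic and glutamatergic neurons held 0 isolated peaks too. *Th*, the rate-limiting enzyme of dopamine synthesis, had 10 peaks, *Ddc* had 18, and *Slc6a3*, the dopamine transporter, had 3. The authors picked the DN cluster by *Th* and checked it by *Lmx1b*, *Foxa1*, *Foxa2* and *Slc6a3*, so peaks at these genes are no independent result.

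Over all classes, mean GC content was 45.9% (SD 9.45) in isolated and 53.5% (SD 9.07) in other peaks. Away from promoters, isolated peaks were AT-rich beside other peaks and GC-rich beside the DNA around them. Mean GC content over intronic and intergenic isolated peaks was 42.5% (SD 5.64), against 49.2% (SD 6.15) in other such peaks. In windows of 500 bp placed 2 kb away it was 40.1% and 46.2%, so that the peaks stood 2.40 and 2.90 percentage points above their own windows. The peak was above its windows in 67.0% and 68.6%. Repeat-masked bases filled 12.4% of isolated and 13.1% of other peaks, and 29.6% and 24.5% of their windows. The CpG ratio was 0.22 against 0.26.

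The sequence of isolated peaks was nearly all unique in the genome. On average 99.1% of the 50-base words sampled in an isolated peak occurred once in the genome, against 99.3%, and 1526 (93.3%) had only such words. Under 50% were unique in 4 isolated peaks (0.24%), against 23 other peaks (0.043%), and 3 of the 4 were protein-coding promoters. They lay at *Gm3667*, *Trav10d*, *Gm14410* and *Gm14403*. No isolated peak shared a word of 25 bases with the mitochondrial genome.

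Of 13 motifs searched on both strands of distal peaks, the homeodomain, forkhead, NBRE and Mef2 words had higher shares in isolated than in other peaks, and the GC box, REST, ETS, NRF1 and CRE words lower ones, counting only words whose intervals did not overlap. The forkhead word was found in 171 of 1305 isolated intronic and intergenic peaks (13.1%, interval 11.3 to 15.1%), against 9.03% (interval 8.71 to 9.35%) of 31592 other such peaks. It was found in 8.01% and 6.51% of the windows beside them. The NBRE was found in 102 (7.82%, interval 6.42 to 9.41%) against 5.25% (interval 5.01 to 5.51%), and in 2.61% and 2.53% of windows. Taken separately, in intergenic peaks the forkhead shares were 14.4% (interval 12.1 to 17.0%) and 8.68% and the NBRE shares 8.95% (interval 7.10 to 11.1%) and 5.32%. In intronic peaks they were 10.7% (interval 8.05 to 13.9%) and 9.21%, and 5.78% (interval 3.84 to 8.30%) and 5.22%. Over all autosomal peaks the shares were 7.24% and 4.01%. A forkhead word or an NBRE was present in 252 isolated distal peaks (19.3%) against 13.7%, and both in 21 (1.61%, interval 1.00 to 2.45%) against 0.58%. None of forkhead, NBRE and CTCF was found in 985 (75.5%) against 79.6%.

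The shares of both words varied with GC content, which was lower in isolated peaks. In distal peaks of under 40% GC the forkhead word was in 15.7% of 452 isolated peaks (interval 12.5 to 19.4%) and 13.5% of others (interval 11.98 to 15.1%), and the NBRE in 10.6% and 10.5%. At 40 to 45% GC the forkhead shares were 12.9% and 12.1% and the NBRE shares 7.30% and 7.51%. At 45 to 50% they were 12.4% and 10.3%, and 5.82% and 5.51%. Above 50% GC the forkhead share was lower in isolated peaks, at 5.36% of 112 against 6.30%, and the NBRE shares were 3.57% and 3.46%. Within each band the intervals of isolated and other peaks overlapped for both words. For the homeodomain and Mef2 words they overlapped in 3 of the 4 bands. The exceptions were the homeodomain word at 45 to 50% GC, in 14.9% (interval 10.9 to 19.7%) against 9.58% (interval 9.01 to 10.2%), and the Mef2 word above 50% GC, in 4 of 112 peaks (3.57%, interval 0.982 to 8.89%) against 0.81% (interval 0.67 to 0.975%).

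Over all classes, CTCF matches were in 4.95% of isolated and 5.29% of other peaks. They were in 76 isolated distal peaks (5.82%, interval 4.62 to 7.24%) against 7.29% (interval 7.00 to 7.58%), with overlapping intervals, and in 0.23% and 0.33% of windows. In intergenic peaks the shares were 6.32% (interval 4.77 to 8.19%) and 10.2%, and in intronic peaks 4.93% (interval 3.15 to 7.30%) and 5.79%. At 40 to 45% GC they were 4.29% (interval 2.64 to 6.55%) and 8.10% (interval 7.41 to 8.84%), and below 40% GC 5.09% and 6.72%, with overlapping intervals. At 45 to 50% GC they were 7.64% and 7.80%, and above 50% GC the order was the opposite, with 10.7% of 112 isolated peaks (interval 5.66 to 17.97%) and 6.67%. The CTCF match was also central in isolated peaks. Of 77 matches 68 (88.3%, interval 79.0 to 94.5%) lay within 50 bp of the peak centre, against 87.9%. For the NBRE it was 33.0% and 31.9%, and for forkhead 27.2% and 27.6%.

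**Figure D4:**
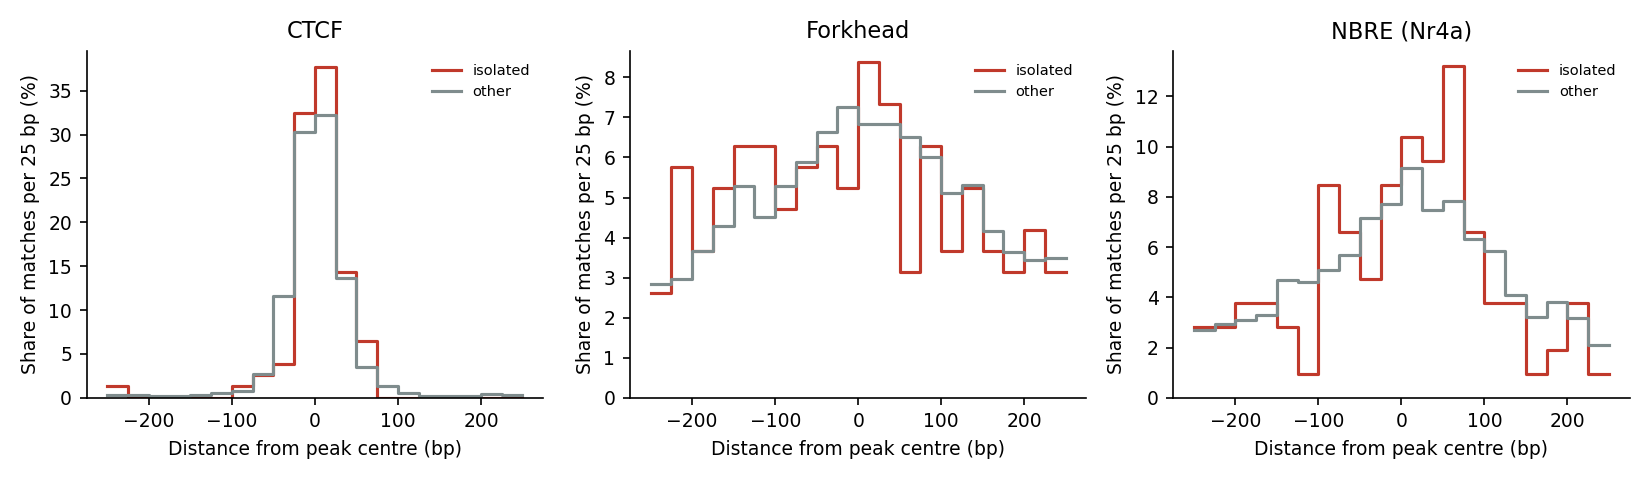
Share of matches in each 25 bp (%) by distance from the peak centre, for isolated (red: 77 CTCF, 191 forkhead and 106 NBRE matches) and other (grey) intronic and intergenic peaks. CTCF matches are concentrated near the centre in both, with 88.3% and 87.9% within 50 bp, and forkhead and NBRE matches are spread more widely.

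Windows held some of the other words as often as peaks did. The homeodomain word (TAATTA) was in 15.3% of isolated distal peaks against 9.27%, but also in 19.3% and 11.8% of the windows beside them. The Mef2 word (CTATTTTTA) was in 2.30% against 1.40%, and in 2.18% and 1.12% of windows. The Pitx and Otx word (TAATCC) was in 18.5% and 16.5%, the AP-1 word (TGANTCA) in 17.1% and 15.1%, and the Neurod E-box (CAGATGG) in 13.3% and 13.9%. Window shares were 18.5% and 18.3% for Pitx and Otx, 14.3% and 14.0% for AP-1, and 9.31% and 12.2% for Neurod. For Neurod the intervals of isolated peaks (11.5 to 15.3%) and of their windows (8.22 to 10.5%) did not overlap. The GC box was in 5.67% and 14.3%, the ETS word in 1.38% and 2.90%, NRF1 in 0.46% and 1.17%, the CRE (TGACGTCA) in 0.15% and 0.78%, and the REST word (TCAGCACC) in 1.23% and 3.05%. The windows differed in the same direction, with 2.87% and 7.52% for the GC box, 0.80% and 1.958% for ETS, 0.38% and 0.92% for NRF1, 0.15% and 0.33% for the CRE, and 1.72% and 2.71% for REST.

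The intergenic share and GC content changed in 1 direction with the gap, and the promoter and CTCF shares did not. Protein-coding promoters were 46.1% of peaks with a neighbour within 1 kb, 16.4% at 1 to 10 kb and 23.3% at 10 to 25 kb. They were 25.4% at 25 to 50 kb, 23.3% at 50 to 100 kb, 18.03% at 100 to 200 kb and 11.6% beyond 200 kb. The intergenic share was higher in each step than in the one before, from 11.9% to 64.1%. GC content of distal peaks was lower in each step, from 51.8% to 41.2%. The CTCF share of distal peaks was 3.86% within 1 kb, highest at 10 to 25 kb (9.61%), and 5.28% beyond 200 kb. The forkhead share went from 7.19% to 14.6%, and the NBRE share from 3.81% to 8.08% at 50 to 100 kb and 7.43% beyond 200 kb. The intervals of the last 3 steps overlapped for both.

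**Figure D5:**
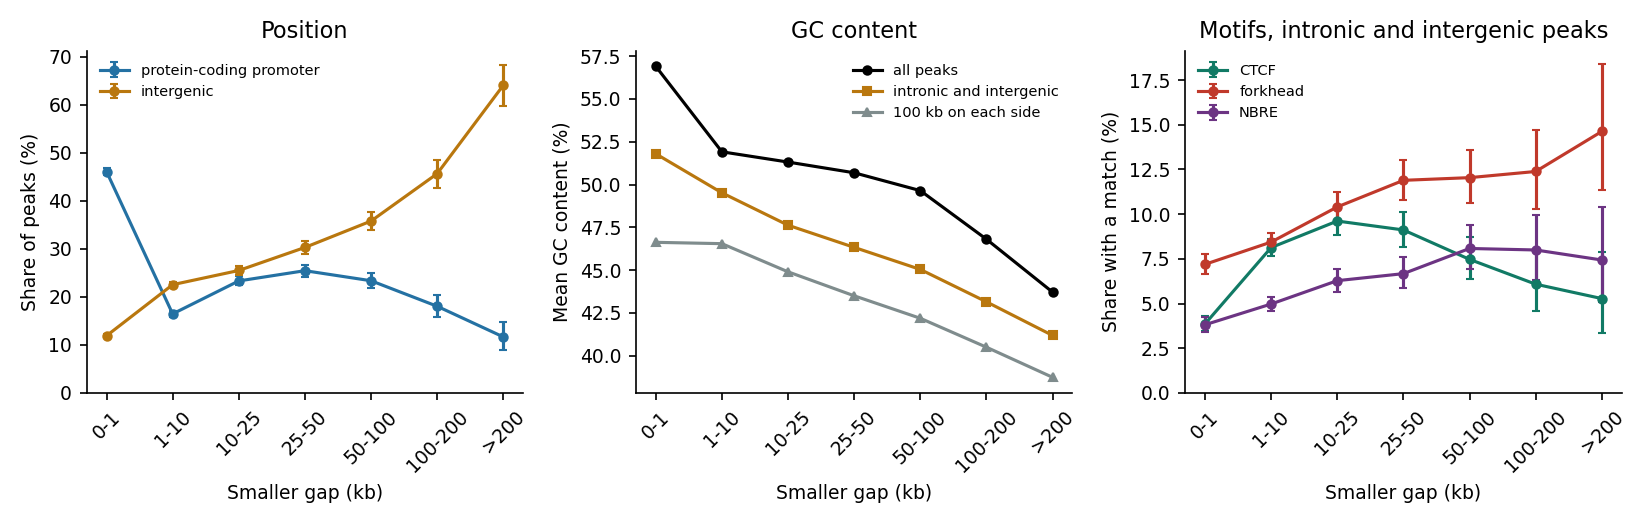
Features of autosomal peaks by the smaller gap in kb, as shares (%) of promoters and intergenic peaks (left), mean GC content (middle, axis not from 0), and shares of intronic and intergenic peaks with a motif match (right), with 95% exact binomial intervals for shares. From the first to the last step the intergenic share goes from 11.9% to 64.1% and the GC content of distal peaks from 51.8% to 41.2%.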

How the data were processed

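The authors mapped reads to mm10 with Cell Ranger, gated out doublets by flow cytometry and removed further ones with ArchR, filtered and clustered nuclei with it, and called reproducible peaks over pseudobulk replicates of the DN cluster, which holds nuclei of both libraries. The deposited list holds peak positions only (chromosome, start, end), with no score. No neighbouring peaks had an end-to-start difference of 0 and 35 had a difference of 1, as when starts count from 1. Starts were printed as listed, and the 500 bp after the first base were analysed. If starts count from 0, printed starts are 1 bp too low.

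Gaps, position classes (GENCODE M21 basic transcripts, by peak centre), GC content and motifs (both strands, GRCm38) were computed in Python 3.11.15 with numpy 2.4.6, pandas 2.3.3 and scipy 1.17.1. Words of 50 bases were sampled every 25 bp. Windows overlapping a peak were left out. Code was tested on simulated data. Genes named were mainly those with the largest smaller gaps per class, the most isolated peaks, or a listed gene's isolated promoter. Others were nearest or host genes of these peaks, genes in long runs, genes at peaks of low uniqueness, and DN markers. Results for some listed genes are not reported here. Members and lists were chosen with earlier results of these data known, and the forkhead and NBRE sequences shown after their values were seen. Alternatives changed the gap, annotation, motif and peak part.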

Additional observations from a re-analysis of the deposited data

How the results depend on the processing

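No paired analysis was possible because both libraries were pooled in the 1 list used here, so no replicate could be left out either. A gap of more than 50 kb gave 4419 isolated peaks, with 20.7% at protein-coding promoters, 41.5% intergenic and 48.2% GC. A gap of more than 200 kb gave 498 peaks, with 11.6%, 64.1% and 43.7%. Counting only protein-coding genes raised the intergenic share to 59.4% (25.6% of other peaks). Over all classes, where the CTCF share was 4.95% (5.29% of other peaks) and GC content 45.9% (53.5%), a looser CTCF consensus gave 9.36% (10.2% of other peaks), and the central 200 bp had 48.2% GC (55.5% in other peaks). Promoter distances of 500 bp and 2 kb gave 15.1% and 16.8% of isolated peaks at promoters, within the interval, but 23.4% and 35.7% of other peaks. All transcripts and leaving out each autosome moved the results they were run on by less than their intervals, and distances between centres gave 1650 isolated peaks. The gap alternatives for the forkhead and NBRE words, chosen after seeing the data, gave 12.5% and 14.6%, and 7.97% and 7.43%. The list does not give the depth behind each peak, and weak sites inside a gap may not have been called.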

Other observations

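On the X chromosome, which the rule leaves out, 111 of 756 peaks (14.7%, interval 12.2 to 17.4%) had more than 100 kb without a peak on both sides. Over the autosomes it was 3.00%. The mice were male, so the X chromosome and the autosomes were not compared at equal copy number.

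The nearest protein-coding start belonged to a chemosensory receptor gene for 16 isolated peaks (0.98%, interval 0.56 to 1.58%), against 0.18% of other peaks. The rule fixes part of this, because no other start with a promoter peak can lie within 100 kb of an isolated peak. Of chemosensory receptor genes 1.19% held a peak, against 65.4% of all autosomal protein-coding genes. Zinc finger genes, by their symbols, made up 13 of the 263 isolated protein-coding promoters (4.94%, interval 2.66 to 8.30%), against 2.97% of other promoters.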
